A study of Sus scrofa with 13 samples.

Results

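The genes described here are 10 molecular chaperones of the HSP70 and HSP90 families and of the mitochondrial matrix, measured in infarcted pig hearts after an injection of stem cells or of saline. They were chosen by gene symbol, as every probe set that the platform annotation assigns to HSPA8, HSPA4, HSPH1, HSP90AA1, HSP90AB1, HSPA5, HSP90B1, HSPA9, HSPD1 or HSPE1. This gave 22 of the 23999 probe sets on the array that are not controls, and 10 of the 6765 genes named by a single symbol. A probe set is a group of short oligonucleotides that together measure one transcript, and 20 of the 22 were bright enough to be tested.

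Heart muscle was sampled by drill biopsy at month 4 from 13 miniswine, all female and of the small Sinclair breed, whose left anterior descending coronary artery had lost its diagonal branches to a permanent ligation at 3 months of age and a weight of about 10 kg. The stem cells group of 7 animals had received 50000000 cells, called MPCs in the labels, in 2 ml saline spread over 5 sites of the border zone around the infarct. The saline group of 6 animals had the same ligation and received 2 ml saline at 5 sites. All animals therefore carried an infarct, and no uninjured heart is among these samples. The species and donor of the injected cells, and the position of each biopsy relative to the scar, are not stated in the labels used here. Each animal gave 1 Affymetrix porcine array, so animals are the replicates, and precision is limited by the number of arrays.

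Chaperones bind unfolded or partly folded proteins and use ATP to help them reach their native shape. In the cytosol HSP70 proteins take up unfolded chains with the help of HSP40 partners and nucleotide exchange factors, and pass some of them to HSP90, which matures kinases, receptors and, in muscle, myosin. The endoplasmic reticulum and the mitochondrial matrix hold dedicated members of these families, and mitochondria add the chaperonin HSP60 with its lid HSP10. In heart muscle these proteins are known for their induction by ischaemia and heat, through heat shock factor 1, and by protein overload of the endoplasmic reticulum, through the unfolded protein response.

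The biopsies carried heart muscle RNA at high level in every animal: the mean log2 intensity of 14 cardiomyocyte genes lay between 13.95 and 14.22 in the stem cells animals and between 13.85 and 14.07 in the saline animals. Myosin heavy chain MYH7 averaged 14.68 ± 0.107 (SD, n = 7) in the stem cells group, against 14.61 ± 0.110 (SD, n = 6) in the saline group. Macrophage and monocyte genes averaged 6.80 ± 0.366 in the stem cells group and 7.15 ± 0.334 in the saline group, with 8 of 9 genes on the negative side. Smooth muscle and pericyte genes averaged 10.03 ± 0.586 in the stem cells group and 10.47 ± 0.405 in the saline group. Their median difference was -0.29, with 5 of 7 negative. At an unadjusted p under 0.05, 2 were lower, MYL9 at -0.88 (SE 0.215) and CNN1 at -1.54 (SE 0.690). The 2 on the positive side were ACTA2 at 0.08 and RGS5 at 0.05. Of 7 lymphocyte genes on the array 3 were bright enough to test, and the T cell genes CD3D, CD3E, CD3G and CD4 were not. The log2 ratio between the 3' and 5' control probe sets of elongation factor EF1A, a measure of RNA quality and labelling, was 0.815 ± 0.107 (range 0.712 to 1.011) in the stem cells group and 0.947 ± 0.0984 (range 0.798 to 1.074) in the saline group. The part of this ratio and of the macrophage and smooth muscle genes in the differences below was not tested, beyond the values given with the ratio as a covariate.

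The question was whether chaperone RNA levels in infarcted hearts differed between the stem cells and the saline group. By their brightest probe sets, 8 of the 10 chaperones differed by less than 0.2 log2 units between the groups, and the other 2, HSPE1 and HSPH1, had lower means after stem cells. All differences are stem cells minus saline on the log2 scale. In limma, with Benjamini-Hochberg adjustment over all 14399 probe sets tested, 0 of the 20 chaperone probe sets passed an adjusted p of 0.05, and 0 of all probe sets did (0%). At an unadjusted p under 0.05, 1 of the 20 was lower after stem cells, against 5.15% of all probe sets, and 0 were higher, against 5.4% of all. Groups that did not overlap were found for 0 of the 20 and for 0.278% of all.

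Differences below 0 were found for 8 of the 20 chaperone probe sets, against 47.2% of all tested. Their median difference was 0.02, beside 0.02 over all probe sets, and 16 of the 20 lay within 0.2 of 0. Measured with 1 probe set per gene, the brightest, 4 genes had a negative and 6 a positive difference. The chaperones were measured with a median SE of 0.132, beside 0.180 over all probe sets, and their median SD within groups was 0.230, beside 0.321 over all. The 95% intervals nevertheless reached as far as -1.38 and 0.96, so a p above the threshold does not show that levels were alike. In bulk tissue, fewer cells of a type and less RNA per cell cannot be told apart.

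**Figure D1:**
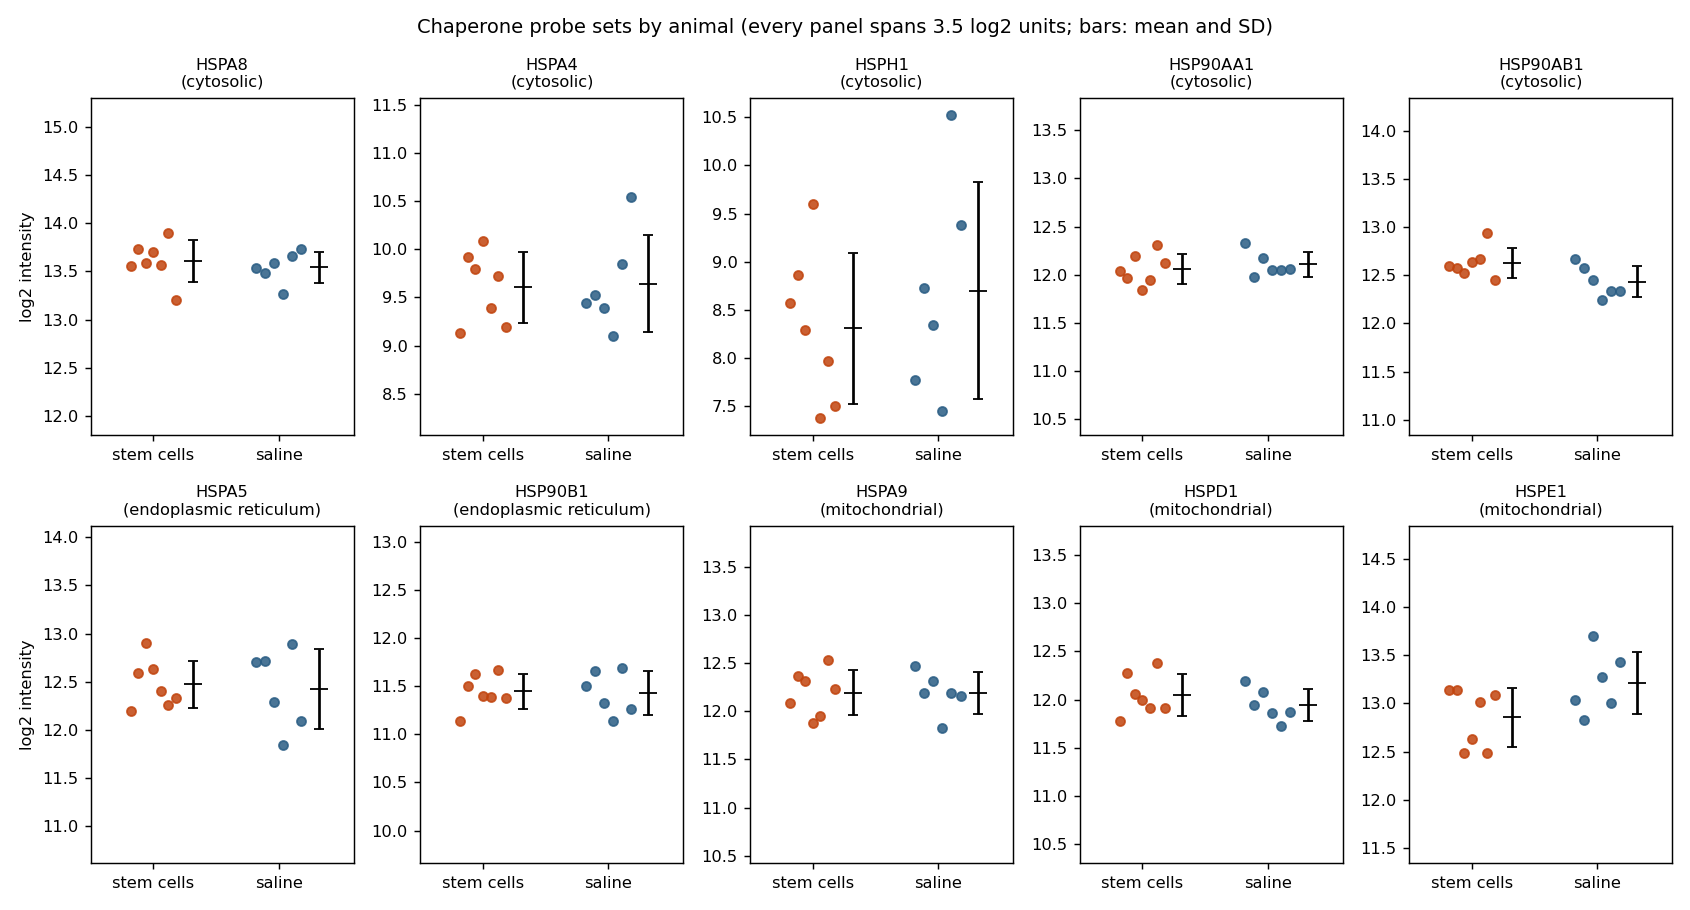
Log2 intensity of the brightest probe set of each chaperone gene in the 7 stem cells animals (left, orange) and the 6 saline animals (right, blue), with the group mean and SD as bars; every panel spans the same number of log2 units. HSPH1 spreads over 3.15 log2 units, whereas HSPA8, both cytosolic HSP90 genes, HSP90B1, HSPA9 and HSPD1 each stay within 0.71 log2 units. The groups overlap in every panel.

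In the cytosol, HSPA8 encodes the constitutive HSP70 of most cells, which folds new chains and uncoats clathrin vesicles. Its bright probe set had a lowest value of 13.20, a median of 13.59 and a highest of 13.90 in the stem cells animals, and 13.27, 13.56 and 13.73 in the saline animals. The lowest and the highest value of all 13 animals both came from stem cells animals, and all 6 saline animals lay inside the range of the stem cells group. The difference was 0.07 (SE 0.106, 95% interval -0.16 to 0.29, limma adjusted p = 0.842). Of 3 further HSPA8 probe sets, 2 were tested and lay only just above the filter level of 3.36, with means of 3.96 and 3.94 after stem cells, against 3.88 and 3.73 after saline. Their differences were 0.08 and 0.21 (SE 0.120 and 0.132), and the third, at 3.17 after stem cells and 3.12 after saline, was too dim to test. The 3 tested HSPA8 probe sets tracked each other weakly across the animals, with r between 0.11 and 0.38, so the dim ones say little about the bright one.

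HSPA4 and HSPH1 are large HSP70 relatives of the HSP110 kind, which act as nucleotide exchange factors for HSP70 and hold unfolded proteins in solution. HSPA4 ran from 9.13 through a median of 9.72 to 10.09 in the stem cells animals, and from 9.10 through 9.48 to 10.54 in the saline animals. All 7 stem cells animals lay inside the range of the saline animals, and saline replicate 6 stood highest. The difference was -0.04 (SE 0.228, 95% interval -0.52 to 0.45), and it was 0.14 without that animal. A second HSPA4 probe set, which followed the first across animals at r = 0.71, differed by -0.15 (SE 0.221), with means of 6.98 ± 0.398 (SD, n = 7) in the stem cells group, against 7.13 ± 0.395 (SD, n = 6) in the saline group. The third was too dim to test, at 2.86 after stem cells and 2.85 after saline.

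HSPH1, an inducible target of heat shock factor 1, was the most variable chaperone of the 10. Its lowest, median and highest values were 7.38, 8.29 and 9.60 in the stem cells animals, and 7.45, 8.54 and 10.52 in the saline animals. The lowest and the highest of the 13 animals differed by 8.86-fold, and its SD within groups exceeded that of 97.3% of all probe sets tested. The means were 8.31 ± 0.785 (SD, n = 7) in the stem cells group, against 8.70 ± 1.13 (SD, n = 6) in the saline group, a difference of -0.39 (SE 0.464, 95% interval -1.38 to 0.60, limma adjusted p = 0.779). Stem cells replicate 4 was high in its group, and saline replicates 5 and 6 were high in theirs. Single saline animals moved the difference: it was -0.03 without saline replicate 5 and -0.64 without saline replicate 4. With the 3' to 5' ratio as covariate it was 0.13.

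In the 3 animals with high HSPH1 some heat-inducible genes were high and others were not. Of 14 heat shock factor 1 targets outside the 10 chaperones, 8 lay above the mean of their own group in stem cells replicate 4, 10 in saline replicate 5 and 8 in saline replicate 6. This count was not made for the other animals, so it is not shown to be particular to these 3. The mean over the targets was 9.32 in stem cells replicate 4, against 8.99 to 9.31 in the rest of its group. It was 10.02 and 9.58 in saline replicates 5 and 6, against 9.16 to 9.51 in the other saline animals. HSP70.2, the pig symbol under which the array lists the stress-inducible HSP70 of the cytosol, stood at 11.49 in stem cells replicate 4, against 12.52 and 12.13 in saline replicates 5 and 6. BAG3, an exchange factor that sends HSP70 clients to autophagy, stood at 11.46 in stem cells replicate 4, against 12.22 and 11.78 in saline replicates 5 and 6. These were the highest values of their groups for both genes, with stem cells replicate 5 equal to replicate 4 in HSP70.2. DNAJB1, the HSP40 partner of inducible HSP70, had its highest value of 9.38 in saline replicate 5, whereas stem cells replicate 4 stood at 6.17 and saline replicate 6 at 5.66. HSPA6, a strictly inducible HSP70, reached 4.00 in stem cells replicate 4, against 4.64 and 4.75 in saline replicates 5 and 6, and no other animal was above 3.70. Other targets were low in some of these animals: STIP1, which links HSP70 to HSP90, had the lowest value of its group in stem cells replicate 4, at 8.08, against 9.14 and 8.48 in saline replicates 5 and 6. MRPL18 was lowest of its group in stem cells replicate 4, at 6.35, and in saline replicate 5, at 7.24. The genes named were chosen after their values were seen. The 3 animals were picked by their HSPH1 values, so these levels are a description.

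HSP90AA1, the inducible isoform, was measured by 5 probe sets, and the brightest had a lowest value of 11.84, a median of 12.04 and a highest of 12.31 in the stem cells animals, against 11.98, 12.05 and 12.33 in the saline animals. The highest and lowest of the 13 animals differed by 1.40-fold, and the SD within groups of this probe set exceeded that of 4.7% of all probe sets tested. The other 4 probe sets spread more, with SDs above those of 20.7, 53.1, 41.4 and 14.5% of all, and the widest ran over 2.20-fold. The difference was -0.05 (SE 0.0972, 95% interval -0.25 to 0.16, limma adjusted p = 0.881). These 4 probe sets differed by 0.03, 0.09, -0.08 and -0.16 (SE 0.123, 0.177, 0.172 and 0.140). Signs were thus split 3 negative to 2 positive over the gene, and its probe sets correlated at a median r of 0.42, between -0.09 and 0.68.

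HSP90AB1, the constitutive isoform, had the highest positive difference among the 10 genes by their brightest probe sets. In the stem cells animals it had a lowest value of 12.45, a median of 12.60 and a highest of 12.94, against 12.24, 12.40 and 12.67 in the saline animals. All 7 stem cells animals lay above the saline mean, but 6 of the 7 also lay within the saline range. The means were 12.63 ± 0.156 (SD, n = 7) in the stem cells group, against 12.44 ± 0.162 (SD, n = 6) in the saline group, a difference of 0.19 (SE 0.0986, 95% interval -0.02 to 0.40), a 1.15-fold ratio. Its unadjusted p was 0.0667 and its limma adjusted p 0.502. Leaving out 1 animal at a time gave 0.14 to 0.24, and the 3' to 5' ratio as covariate gave 0.09.

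**Figure D2:**
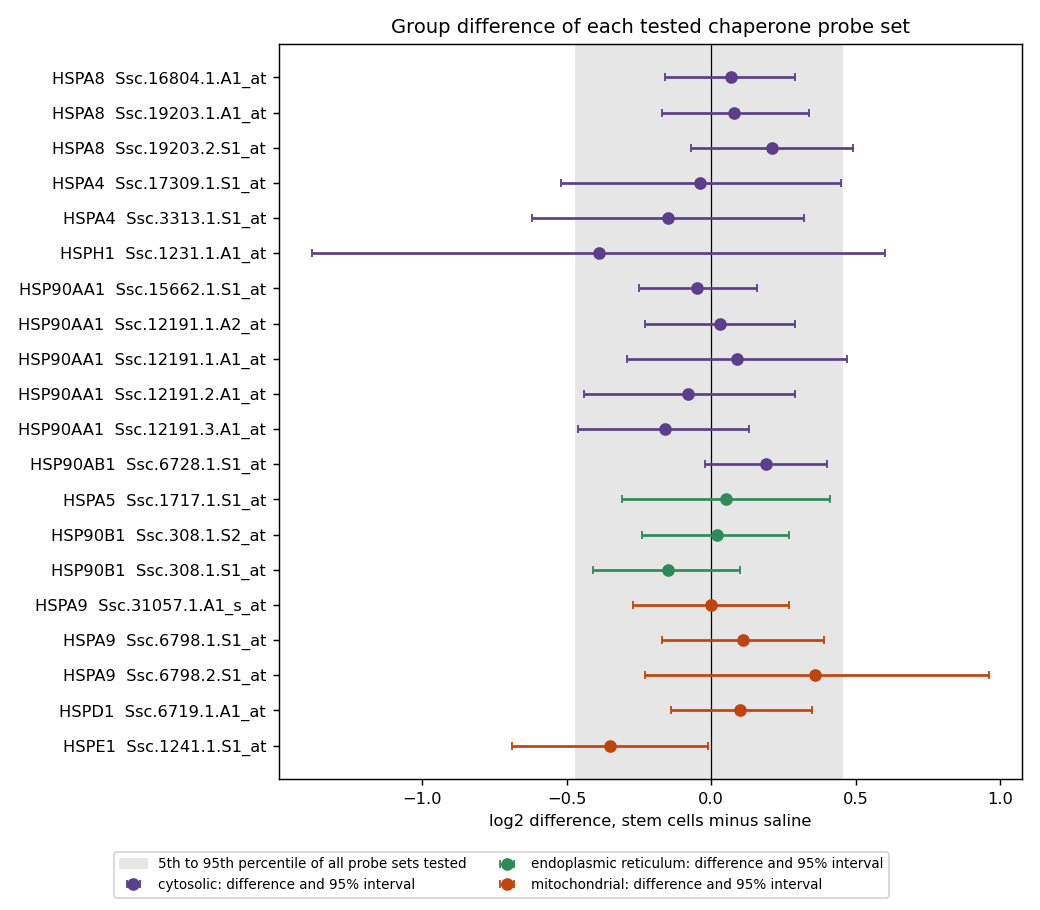
Log2 difference, stem cells minus saline, of the 20 tested chaperone probe sets with 95% intervals, each labelled with its gene and probe set identifier and coloured by cell compartment; the grey band holds the 5th to 95th percentile of all 14399 probe sets tested, -0.47 to 0.45. All 20 points lie inside the band, and the interval of HSPE1 alone leaves 0, ending at -0.01.

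In the endoplasmic reticulum, HSPA5 encodes BiP, the HSP70 that binds chains entering the lumen and keeps the stress sensors of the unfolded protein response silent. It had a lowest value of 12.20, a median of 12.40 and a highest of 12.90 in the stem cells animals, and 11.84, 12.50 and 12.89 in the saline animals. Saline replicate 4 was the lowest of all 13, and 6 of the 7 stem cells animals fell in the saline range. The difference was 0.05 (SE 0.170, 95% interval -0.31 to 0.41, limma adjusted p = 0.930), and -0.07 without saline replicate 4. HSP90B1 encodes GRP94, the HSP90 of the same compartment, which folds integrins and Toll-like receptors. Its brighter probe set ran from 11.14 through a median of 11.40 to 11.67 in the stem cells animals, and from 11.14 through 11.41 to 11.69 in the saline animals, which is nearly the same span. The difference was 0.02 (SE 0.121) for this probe set and -0.15 (SE 0.120) for the other. The second had means of 11.16 ± 0.214 (SD, n = 7) in the stem cells group, against 11.31 ± 0.160 (SD, n = 6) in the saline group.

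In the mitochondrial matrix, HSPA9 encodes mortalin, the HSP70 that pulls imported proteins through the inner membrane. Its brightest probe set, which carries the suffix Affymetrix uses for sets that may match several transcripts, had a lowest value of 11.88, a median of 12.23 and a highest of 12.53 in the stem cells animals, and 11.82, 12.19 and 12.47 in the saline animals. The means were equal at 12.19, with a difference of 0.00 (SE 0.127, 95% interval -0.27 to 0.27). The other HSPA9 probe sets differed by 0.11 (SE 0.132) and 0.36 (SE 0.278). The last had means of 9.46 ± 0.579 (SD, n = 7) in the stem cells group, against 9.10 ± 0.511 (SD, n = 6) in the saline group and an interval of -0.23 to 0.96. HSPA9 probe sets correlated with each other at r between 0.51 and 0.69.

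HSPD1 encodes HSP60, the barrel-shaped chaperonin of the matrix, and HSPE1 encodes HSP10, the ring that closes the barrel. In the pig assembly Sscrofa11.1 HSPE1 is the gene next to HSPD1. HSPD1 had a lowest value of 11.78, a median of 12.00 and a highest of 12.38 in the stem cells animals, and 11.73, 11.90 and 12.19 in the saline animals. The difference was 0.10 (SE 0.115, 95% interval -0.14 to 0.35, limma adjusted p = 0.757), and 5 animals of each group lay in the range of the other.

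HSPE1 had a lowest value of 12.49, a median of 13.01 and a highest of 13.14 in the stem cells animals, and 12.83, 13.16 and 13.70 in the saline animals. All 7 stem cells animals lay below the saline mean. Stem cells replicates 3, 4 and 6 were under every saline animal, saline replicates 3, 4 and 6 were over every stem cells animal, and the others overlapped. The means were 12.86 ± 0.306 (SD, n = 7) in the stem cells group, against 13.21 ± 0.319 (SD, n = 6) in the saline group, a difference of -0.35 (SE 0.159, 95% interval -0.69 to -0.01), or a ratio of 0.783. This was the 1 chaperone probe set with an unadjusted p under 0.05, at 0.0420, and its limma adjusted p of 0.458 did not pass.

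The HSPE1 difference was -0.11 with the 3' to 5' ratio as covariate, and leaving out 1 animal at a time gave -0.43 to -0.26. HSPE1 is also a short gene, at the 3.2 percentile of genomic span among 5142 tested genes with a span. When these genes were divided by span into 3 bins of 1714, the median difference was -0.17 in the shortest, -0.04 in the middle and 0.02 in the longest bin. HSP90AA1, HSPA5 and HSPA8 fell in the shortest bin too, with differences of -0.05, 0.05 and 0.07. The part of gene span in the HSPE1 value was not tested. The differences of HSPD1 and HSPE1 had opposite signs, and the gap between them was not tested.

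Across the 13 animals, chaperones that share a compartment or a family were compared in 7 pairs, each gene by its brightest probe set, with permutation p-values from 100000 resamples, two-sided and adjusted over the 7. HSPA5 and HSP90B1, the endoplasmic reticulum pair, had a Pearson's r of 0.79 (permutation p = 0.00176, adjusted p = 0.0123) and a Spearman's rho of 0.76 (permutation p = 0.00359, adjusted p = 0.0106). Only 0.588% of all pairs of tested probe sets had an r at least as high. Over the 2 combinations of HSPA5 and HSP90B1 probe sets r lay between 0.54 and 0.79, and the brightest gave the highest. Within groups r was 0.49 over the stem cells animals and 0.97 over the saline animals. Without the 2 animals farthest from the HSPA5 median, saline replicate 4 and stem cells replicate 3, r was 0.68 (permutation p = 0.0233, adjusted p = 0.162). The call was lost, but with 11 animals over a narrower range this cannot show that the correlation rests on those 2. The call was also lost without saline replicate 4 alone, at r = 0.72 (permutation adjusted p = 0.0508).

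HSPA9 and HSPD1, which act in sequence on imported proteins, had an r of 0.69 (permutation p = 0.0101, adjusted p = 0.0303) and a rho of 0.78 (permutation p = 0.00268, adjusted p = 0.0106). The r was 0.75 over the stem cells animals and 0.67 over the saline animals, and 2.13% of all pairs were at least as high. Over the 3 combinations of probe sets r lay between 0.29 and 0.69, and the brightest gave the highest. Without saline replicate 4 and stem cells replicate 6 r was 0.56 (permutation p = 0.0765, adjusted p = 0.178). This call too was lost, with the same limit of fewer animals over a narrower range. The call was lost as well without stem cells replicate 6, saline replicate 1 or saline replicate 4 alone, at permutation adjusted p-values of 0.122, 0.0517 and 0.0508. HSPA4 and HSPH1, the HSP110 pair, had an r of 0.67 (permutation p = 0.0130, adjusted p = 0.0303) and a rho of 0.75 (permutation p = 0.00455, adjusted p = 0.0106). The r was 0.67 over the stem cells animals and 0.68 over the saline animals, and 2.55% of all pairs were at least as high. Over the 2 combinations of probe sets r lay between 0.43 and 0.67, and the brightest gave the highest. Without saline replicate 6 and stem cells replicate 4 r was 0.59 (permutation p = 0.0461, adjusted p = 0.162), and the call was lost, with the same limit. On deviations from the group means r was 0.68 and the call was lost (permutation adjusted p = 0.0507), as it was without stem cells replicate 4 or 7 or saline replicate 1 or 4 alone, with permutation adjusted p-values of 0.0517 to 0.0761.

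HSPD1 and HSPE1, neighbours in the genome and partners in a complex, failed the test and had a negative sign: r was -0.30 (permutation p = 0.319, adjusted p = 0.440) and rho -0.25 (permutation p = 0.400, adjusted p = 0.561). The r was -0.45 over the stem cells animals, 0.20 over the saline animals and -0.11 without the 2 animals farthest from the HSPD1 median. Of all probe set pairs, 79.2% had an r at least as high.

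The 3 pairs with HSP90AA1 also failed the test. With HSP90AB1 r was 0.27 (permutation p = 0.377, adjusted p = 0.440) and rho -0.02 (permutation p = 0.953, adjusted p = 0.953), with 0.36 over the stem cells animals and 0.57 over the saline animals. With HSPA8 it was 0.05 (permutation p = 0.872, adjusted p = 0.872) and rho -0.05 (permutation p = 0.874, adjusted p = 0.953), with 0.10 over the stem cells animals and 0.06 over the saline animals. With HSPH1 it was -0.39 (permutation p = 0.183, adjusted p = 0.320) and rho -0.34 (permutation p = 0.255, adjusted p = 0.447), with -0.50 over the stem cells animals and -0.44 over the saline animals. These values depended on the probe set that stood for HSP90AA1: over its 5 probe sets the r with HSPH1 lay between -0.39 and 0.61, and that with HSPA8, over 15 combinations, between -0.62 and 0.56. Without saline replicate 1 and stem cells replicate 6, the 2 animals farthest from its median, the r was -0.47 with HSP90AB1, -0.33 with HSPA8 and -0.27 with HSPH1.

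**Figure D3:**
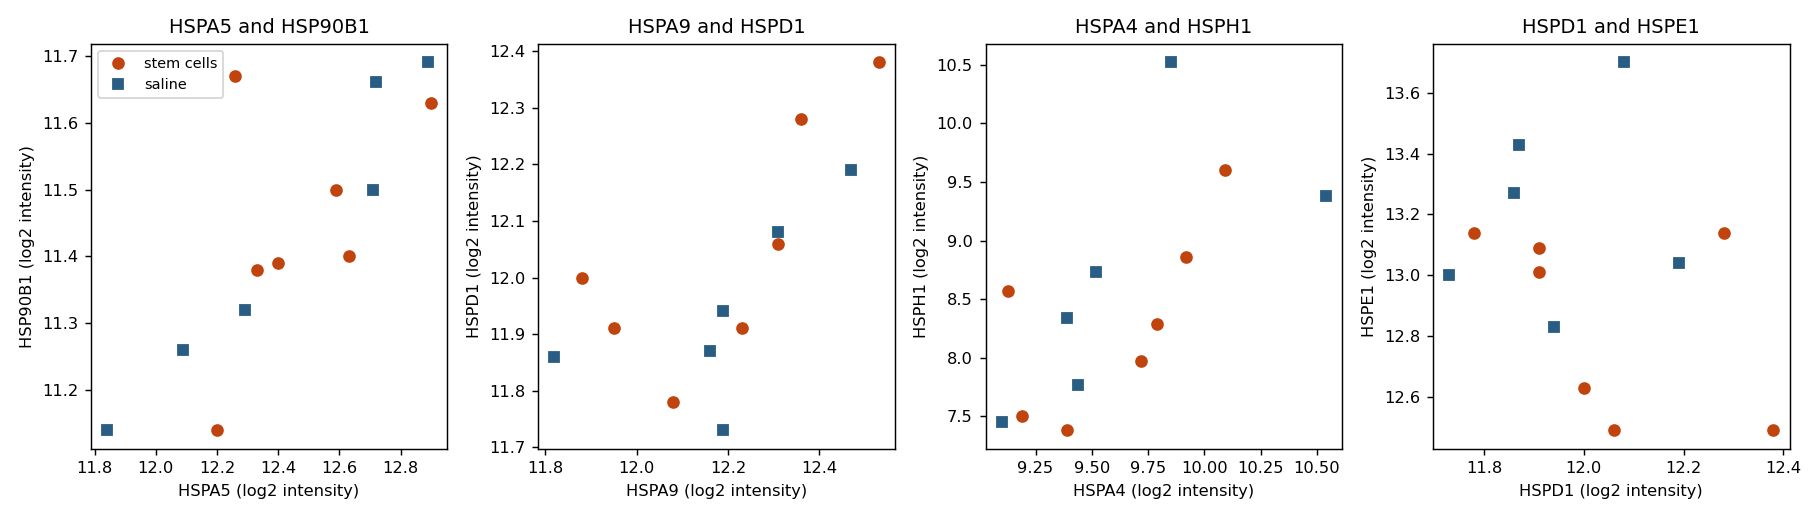
Log2 intensities of 4 chaperone pairs, each point 1 animal, with stem cells animals as orange circles and saline animals as blue squares. The points climb together for HSPA5 with HSP90B1 (r = 0.79), HSPA9 with HSPD1 (r = 0.69) and HSPA4 with HSPH1 (r = 0.67), but not for HSPD1 with HSPE1 (r = -0.30).

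Over all 45 pairs of the 10 genes the median r was 0.25, 29 pairs were above 0, and the values ran from -0.64 for HSP90B1 with HSPE1 to 0.79 for HSPA5 with HSP90B1. HSPE1 was the gene with 0 of its 9 correlations above 0 and a median of -0.29. With the 3' to 5' ratio HSPE1 had an r of 0.72, and the other chaperones ran from -0.67 for HSP90AB1 to 0.46 for HSPH1. The part of this ratio in the correlations between chaperones was not tested. HSPD1 and HSPA8 had medians of 0.40 and 0.38 with the 9 others. These are descriptions over the same 13 arrays, which share animals and normalization, and no p is given for them.

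**Figure D4:**
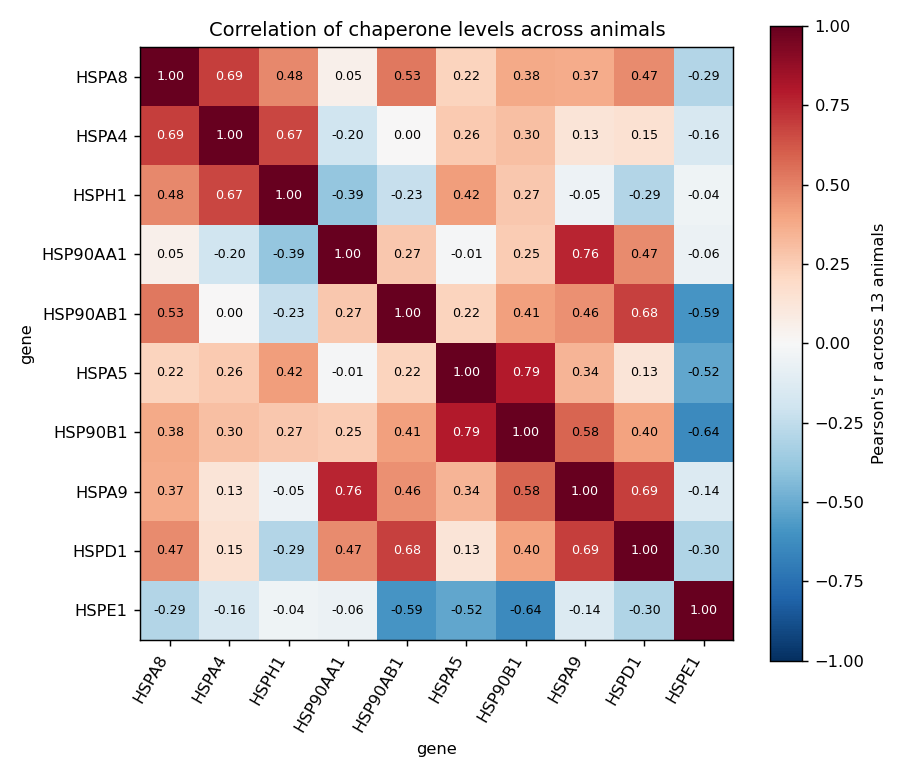
Pearson's r across the 13 animals for every pair of the 10 chaperone genes, each by its brightest probe set, on a colour scale with r printed in each cell. The HSPE1 row holds no positive value outside the diagonal, and the strongest positive cell joins HSPA5 and HSP90B1 at 0.79.

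For each chaperone the named gene outside the 10 with the most similar profile over the 13 arrays, by Pearson's r, was also taken. HSPE1 was most like TOMM5, a small subunit of the mitochondrial outer membrane import pore, at r = 0.959. TOMM5 differed by -0.42 (SE 0.168) between the groups, close to the difference of HSPE1. It was picked by its r over these same arrays of both groups, so its difference is no separate evidence for that of HSPE1. HSPA9 was most like MRPS27, a mitochondrial ribosome gene, at 0.897. HSPD1 was most like CDKN2AIP at 0.926. HSPA5 was most like HIF1A, the oxygen-regulated transcription factor, at 0.824, and HSP90B1 like PIR at 0.875. The PIR probe set was dim, between 3.25 and 3.64 over the animals, around the filter level of 3.36. In the cytosolic set HSPH1 was most like the kinase gene MAPK6 at 0.930, HSPA4 like GYG1, the primer protein of glycogen, at 0.872, and HSPA8 like XPOT, a tRNA exporter, at 0.834. HSP90AB1 was most like ADNP at 0.889 and HSP90AA1 like the unnamed locus LOC100522678 at 0.945. Each is the highest of the many values compared, and its size carries no test.

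The proteins that work with these chaperones were read from lists of the chaperone network, with 1 probe set per gene and some genes in more than 1 list. In limma 0 genes of any list passed an adjusted p of 0.05, against 0% of all probe sets. At an unadjusted p under 0.05, 5.15% of all probe sets tested were lower and 5.4% higher after stem cells. Differences below 0 made up 47.2% of all. The counts per list below stand beside these shares, and no list was tested against them. The shares cover all probe sets tested, with or without a gene symbol, whereas the lists hold 1 probe set per named gene. A share over named genes alone is not given, so the counts and shares are not like for like. Of 7 other HSP70 family genes 5 had a negative and 2 a positive difference, with a median of -0.10 and 0 at an unadjusted p under 0.05. HSP70.2 had means of 11.00 ± 0.427 (SD, n = 7) in the stem cells group, against 11.43 ± 0.762 (SD, n = 6) in the saline group, a difference of -0.42 (SE 0.296). HSPA6, HYOU1, an exchange factor of the endoplasmic reticulum, and HSPA12A differed by -0.25, -0.21 and -0.05. HSPA6 and HSPA12A were dim, with means of 3.48 and 3.42 after stem cells and 3.73 and 3.47 after saline, close to the filter level of 3.36.

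Of 21 HSP40 co-chaperones, which deliver clients to HSP70, 14 differences were negative and 7 positive, with a median of -0.04. At an unadjusted p under 0.05, 2 were higher and 1 lower after stem cells. The higher ones were DNAJB14, a membrane-bound HSP40, at 0.46 (SE 0.186), and DNAJC2, which acts at the ribosome, at 0.45 (SE 0.187). The lower one was DNAJC5, the synaptic vesicle HSP40, at -0.53 (SE 0.192). SEC63, the HSP40 of the translocation channel, was at 0.34. Among 5 nucleotide exchange factors 4 were negative, with BAG5 at 0.25, BAG3 at -0.24 (SE 0.660), HSPBP1 at -0.20 and GRPEL1 at -0.15.

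Of 15 HSP90 co-chaperones 12 were negative and 3 positive, with a median of -0.10 and 2 lower at an unadjusted p under 0.05. STUB1, the ubiquitin ligase CHIP that marks HSP70 and HSP90 clients for degradation, had means of 8.93 ± 0.514 (SD, n = 7) in the stem cells group, against 9.48 ± 0.262 (SD, n = 6) in the saline group, a difference of -0.55 (SE 0.222). PTGES3, the p23 protein that holds HSP90 in its closed state, differed by -0.33 (SE 0.143). SGTA and the immunophilin FKBP4 were at -0.36 and -0.27.

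Among 4 heat shock factors and regulators 3 were negative, with a median of -0.34 and 2 lower at an unadjusted p under 0.05. HSBP1, a small protein that binds heat shock factor 1, had a lowest value of 10.63, a median of 11.33 and a highest of 11.83 in the stem cells animals, and 11.70, 11.88 and 12.19 in the saline animals. All 7 stem cells animals lay below its saline mean, with a difference of -0.61 (SE 0.180, unadjusted p = 0.00376, limma adjusted p = 0.393). HSF1 itself had means of 4.73 ± 0.230 (SD, n = 7) in the stem cells group, against 5.05 ± 0.194 (SD, n = 6) in the saline group, a difference of -0.31 (SE 0.142). HSF2BP was at -0.36 and HSF2 at 0.06. Of 14 heat shock factor 1 targets outside the 10 genes 11 were negative, with a median of -0.25, or -0.15 without saline replicate 5, whose mean over the list was 10.02, against 9.16 to 9.58 in the other saline animals. Named among them were HSPB1 at -0.54, MRPL18 at -0.51, PTGES3 at -0.33 and the collagen chaperone SERPINH1 at -0.61.

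Of 16 genes of endoplasmic reticulum folding and the unfolded protein response 12 were negative, with a median of -0.14 and 2 lower at an unadjusted p under 0.05. These were CRELD2 at -0.35 (SE 0.140) and MANF at -0.30 (SE 0.133), both secreted products of the unfolded protein response. DDIT3, its CHOP transcription factor, had a difference of -1.09 (SE 0.633). It lay between 4.42 and 4.88 in the stem cells animals and between 4.17 and 9.40 in the saline animals, and saline replicates 5 and 6, at 9.40 and 6.41, were the high ones. The pair HSPA5 and HSP90B1, which the same response controls, had differences of 0.05 and 0.02 by their brightest probe sets. The other HSP90B1 probe set differed by -0.15, near the list median.

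Of 9 mitochondrial folding, import motor and protease genes 8 were negative, with a median of -0.22, or -0.10 without stem cells replicate 4, whose list mean of 7.92 was the lowest. TIMM50, a receptor of the inner membrane import channel, was lower at an unadjusted p under 0.05, with -0.49 (SE 0.198), and the others named by rule were DNAJA3 at -0.24, PHB2 at -0.23 and YME1L1 at 0.21. Of 11 TRiC and prefoldin genes, which fold actin and tubulin, 7 were negative, with a median of -0.08. PFDN6 was at -0.52 (SE 0.225), PFDN5 at -0.41, CCT2 at 0.19 and VBP1 at 0.29. All 7 small heat shock protein genes were on the negative side, with a median of -0.31 and 2 at an unadjusted p under 0.05. The median was -0.18 without stem cells replicate 6, whose list mean was 10.81, against 11.51 to 11.90 in the other stem cells animals, and -0.19 without saline replicate 6, whose list mean of 12.44 was the highest. Of the smooth muscle and pericyte genes 5 of 7 were negative too, and their part in these values was not tested. HSPB6 had means of 10.05 ± 0.440 (SD, n = 7) in the stem cells group, against 10.88 ± 0.600 (SD, n = 6) in the saline group, a difference of -0.83 (SE 0.261), and HSPB1, HSPB7 and CRYAB were at -0.54, -0.37 and -0.18.

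**Figure D5:**
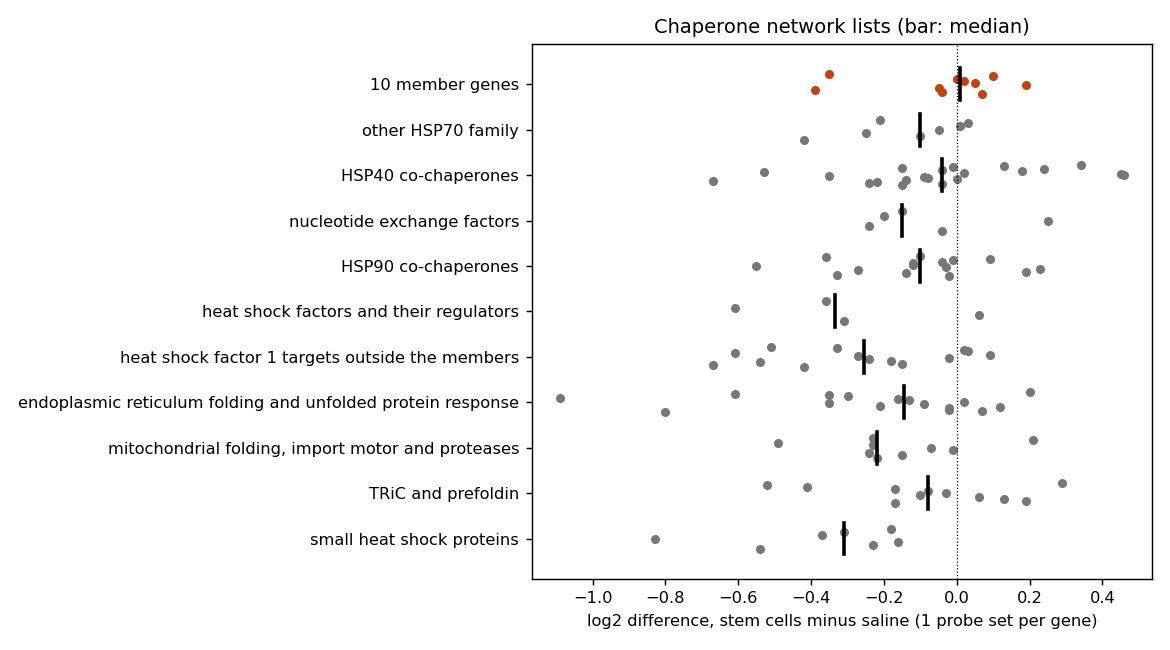
Log2 difference, stem cells minus saline, of each tested gene of the chaperone network, 1 point per gene and 1 row per list, with the list median as a bar. The 10 chaperones (orange, top row) have their median at 0.01, and the other lists have medians between -0.34 and -0.04.

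The medians of all 10 of these network lists were below 0, whereas that of the 10 chaperones by gene was 0.01. Tested genes with a span had medians of -0.17, -0.04 and 0.02 in the shortest, middle and longest span bin. The shortest and the middle bin thus had medians below 0 as well. The heat shock factors, small heat shock proteins, heat shock factor 1 targets and mitochondrial folding genes had lower medians, at -0.34, -0.31, -0.25 and -0.22. Medians of the other lists ran from -0.15 to -0.04. The part of gene span in the list medians was not tested. No difference between the lists was tested, and they share genes and animals. Left out 1 at a time, single animals moved 9 of the 10 medians by over 1.5 times, all staying below 0. The other HSP70 family ranged from -0.24 (without saline replicate 3) to -0.01 (without saline replicate 6), and the HSP40 co-chaperones from -0.12 (without saline replicate 2) to -0.02 (without saline replicate 3). Nucleotide exchange factors ranged from -0.22 (without saline replicate 4) to -0.02 (without stem cells replicate 6), and HSP90 co-chaperones from -0.14 (without saline replicate 4) to -0.03 (without stem cells replicate 4). Genes of endoplasmic reticulum folding ranged from -0.19 (without saline replicate 4) to -0.09 (without stem cells replicate 6), and TRiC and prefoldin from -0.15 (without stem cells replicate 1) to -0.03 (without stem cells replicate 3). The exception was the list of heat shock factors and regulators, at -0.42 to -0.26. With the 3' to 5' ratio as covariate the median of the other HSP70 family was 0.02 and that of TRiC and prefoldin 0.01, while the other 8 stayed negative. Immediate early genes, the fast responders to handling and injury, had 13 of 17 negative differences and a median of -0.27. At an unadjusted p under 0.05, 3 were lower. NR4A3, NR4A2, FOSL2 and IER3 differed by -2.20, -1.66, -1.42 and -1.32. A single animal decided the list median: stem cells replicate 6 had a mean of 6.73 over the list, against 9.53 to 10.18 in the other stem cells animals and 8.98 to 10.79 in the saline animals, and the median was 0.11 without it. With that list mean as a covariate HSP90AB1 differed by 0.12 and HSPE1 by -0.29.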

How the data were processed

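The deposited values are linear probe set intensities, 1 column per array, which the authors computed with GCRMA according to the submitters' processing notes, with no version or settings given in the sources used here. GCRMA corrects background, normalizes between arrays and summarises the oligonucleotides of a set, so the deposited intensities cannot show a shift common to most genes. They were put on the log2 scale here, and 0 sample columns were left unused. Symbols came from GEO's platform annotation, which can be old: 10069 probe sets had 1 symbol, 198 several and 13732 none, and 9961 were matched by gene ID to RefSeq's Sscrofa11.1 table, which changed 0 symbols and gave spans and neighbours. No build is stated for the array and no coordinates are given.

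Of 24123 probe sets 124 controls were left out, and those with a mean log2 intensity above the 40th percentile were tested, which left 14399. The groups were compared over all 13 animals in R 4.3.3 with limma 3.58.1 (lmFit, eBayes with trend = TRUE), with Benjamini-Hochberg adjustment over all probe sets tested and a threshold of 0.05. The fit was tested on simulated data. Pair correlations used 100000 permutations. The chaperones, the lists and the tests were chosen with earlier results of these data known. Named were all 10 genes with every probe set, up to 4 genes with the smallest p in each network list, 1 most similar gene per chaperone and defining cell markers; HSP70.2 was found as a synonym, and DNAJB1 and STIP1 were named for their values beside HSPH1. Alternatives were other filters, a floor, a second quantile normalization, median centring, array weights, a variance without trend, covariates for the 3' to 5' ratio, tissue makeup and immediate early genes, 1 probe set per gene, a threshold of 0.1, a replicate block and leaving out each animal. The labels give no batch, so no values within batches could be computed.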

Additional observations from a re-analysis of the deposited data

Results flagged for a closer look

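The second HSPA4 probe set stood at 6.37 in saline replicate 4, and the nearest saline animal was at 7.06. That gap took up 0.629 of the range of the saline group, above Dixon's critical value for 6 samples. Of 44 combinations of group and probe set looked at, this was the 1 that met the criterion, and chance alone meets it in about 1 of 20. The same animal had the lowest saline value of the brighter HSPA4 probe set, 9.10, of HSPA5, 11.84, and of HSPH1, 7.45.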

How the results depend on the processing

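Over 24 alternative fits, 0 of 478 chaperone values passed an adjusted p of 0.05 in limma (smallest 0.360), 39 turned sign, and 10 of the 20 probe sets kept their sign throughout. The median over the chaperones lay between -0.06 and 0.06 when 1 animal was left out, the count of passing probe sets was 0 in every setting, and the threshold of 0.1 gave 0 as well. The covariate for the 3' to 5' ratio turned HSPH1 to 0.13, HSPA4 to 0.14, HSPA5 to -0.0524, the brighter HSP90B1 probe set to -0.077, HSPA8 (second probe set) to -0.0047, HSPA9 to -0.0036, and 3 HSP90AA1 probe sets to -0.0054, -0.10 and 0.0257. The immediate early covariate gave -0.0079 for HSP90AA1 (second probe set), -0.0216 for HSP90B1 and -0.0701 for HSPA9. HSPA9, at 0.00, also turned with array weights (-0.0397), median centring (-0.0109) and tissue makeup (-0.0085), and HSP90AA1 with a second quantile normalization (0.0081). Without 1 animal, HSP90AA1 ranged from -0.0643 to 0.0832 for 1 probe set and from -0.0426 to 0.175 for another, HSP90B1 from -0.0401 to 0.0691, HSPA4 from -0.144 to 0.145, HSPA5 from -0.0653 to 0.144 and HSPA9 from -0.0736 to 0.0564. The labels do not state that replicate numbers pair the animals. Of 6 same-numbered pairs 1 deviated together at r over 0.1, and 1 stem cells animal was closest to its own number. Such low values cannot exclude a pairing. With the replicate block the median was 0.04, HSPA4 0.0337, HSPA9 -0.0062, and 0 probe sets passed. Pair correlations that lost the call without the 2 animals at the ends were HSPA9 with HSPD1 (0.556; 0.572 to 0.769 without 1 animal), HSPA5 with HSP90B1 (0.682; 0.717 to 0.929) and HSPA4 with HSPH1 (0.59; 0.624 to 0.753; 0.677 on deviations from group means, where the call was lost too). HSP90AA1 with HSPA8 turned to -0.33 without those animals, to -0.05 as rho, to -0.62 over probe sets and to between -0.278 and 0.179 without 1 animal; HSP90AA1 with HSP90AB1 turned to -0.472, to a rho of -0.019 and to between -0.092 and 0.415; HSP90AA1 with HSPH1 reached 0.61 over probe sets. In each case the cause was not tested.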
